A study of Mus musculus with 26 samples.

Results

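The chromatin positions of ATRX and EZH2 were compared in female mouse embryonic fibroblasts (MEFs) labelled wild-type (WT). These cells have neither the ATRX deletion nor the ATRX knockdown of the study's other cells, and other changes in the line are not stated. The study asked how RNA binding by ATRX shapes where ATRX and the Polycomb machinery sit on chromatin, and the other cells it used were a single CRISPR clone that lacks the RNA-binding region of ATRX (ATRXΔRBR) and cells with ATRX knocked down by shRNA (ATRX KD). ATRX was profiled with a custom-made polyclonal antibody, purified on its antigen, and EZH2 with a commercial antibody, each by CUT&RUN in 2 replicate libraries of WT cells. H3K27me3 CUT&RUN and RNA-Seq of polyadenylated RNA, with 2 WT libraries each, served as independent readouts at the same positions. The authors called broad peaks in each library on its own, and the WT lists held 9141 and 4781 peaks for ATRX and 22316 and 18351 for EZH2. A peak of replicate 1 that overlapped a peak of replicate 2 of the same target by at least 1 bp on 1 of the 21 assembled chromosomes of mm10 was taken as a position of that target. This gave 3197 ATRX positions and 15588 EZH2 positions, together 18785 of the 272147 peaks in all lists of the series. An ATRX position was called shared when it overlapped an EZH2 position, and ATRX-only when it did not, and EZH2 positions were divided in the same way. The 4 resulting classes held 1988 shared and 1209 ATRX-only positions on the ATRX side, and 1985 shared and 13603 EZH2-only positions on the EZH2 side.

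ATRX is an ATP-dependent chromatin remodeler of the SWI/SNF family that works with DAXX to place the histone variant H3.3, and it is best known from heterochromatin, telomeres and other repetitive DNA. EZH2 is the catalytic subunit of Polycomb repressive complex 2 (PRC2), which writes H3K27me3 over CpG-rich promoters of silent developmental genes. CUT&RUN cuts and releases the DNA next to a bound antibody in permeabilized cells, and regions with many released fragments are called as peaks.

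The kinds of DNA found in the classes are shown first, as stretches of the GRCm38 (mm10) reference, forward strand, read from RefSeq. None of them lies in an annotated exon. The first 3 come from shared positions, the next 2 from ATRX-only positions and the last from an EZH2-only position. Capitals mark TGANTCA, the consensus of the AP-1 (Fos and Jun) transcription factors, in the Prune2, Vim, Klf6 and Dop1b stretches. They mark the CCAAT box on either strand in the Mdm1 stretch and every CpG in the Calcoco1 stretch. The first is the intronic part of the shared position in Prune2, one of the strongest shared positions away from promoters, at chr19:17140461-17140660.
Prune2: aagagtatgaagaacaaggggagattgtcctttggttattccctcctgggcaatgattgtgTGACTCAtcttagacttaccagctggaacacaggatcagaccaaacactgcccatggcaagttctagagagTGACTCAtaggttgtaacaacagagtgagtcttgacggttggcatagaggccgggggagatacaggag
The next 2 lie just upstream of the Vim TSS at chr2:13573539-13573698 and of the Mdm1 TSS at chr10:118141611-118141810, both inside a shared promoter position.
Vim: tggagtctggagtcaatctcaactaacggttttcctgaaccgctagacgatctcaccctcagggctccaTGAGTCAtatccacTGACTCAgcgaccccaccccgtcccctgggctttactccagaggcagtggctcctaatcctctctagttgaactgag
Mdm1: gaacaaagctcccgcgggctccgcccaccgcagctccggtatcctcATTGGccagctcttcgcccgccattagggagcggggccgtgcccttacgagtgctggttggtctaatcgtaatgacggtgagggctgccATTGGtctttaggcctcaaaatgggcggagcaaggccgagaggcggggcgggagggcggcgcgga
The highest-ranked intergenic ATRX-only position on chromosomes other than 18 lies upstream of Klf6, and the stretch at chr13:5837474-5837673 holds 2 AP-1 matches.
Klf6: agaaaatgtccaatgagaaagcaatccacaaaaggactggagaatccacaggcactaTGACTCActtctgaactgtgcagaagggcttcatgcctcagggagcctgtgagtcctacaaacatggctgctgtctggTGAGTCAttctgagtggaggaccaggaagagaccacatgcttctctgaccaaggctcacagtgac
In an intron of Dop1b, an ATRX-only position covered an array with a period of 40 bp in which the AP-1 match recurs (chr16:93778296-93778495).
Dop1b: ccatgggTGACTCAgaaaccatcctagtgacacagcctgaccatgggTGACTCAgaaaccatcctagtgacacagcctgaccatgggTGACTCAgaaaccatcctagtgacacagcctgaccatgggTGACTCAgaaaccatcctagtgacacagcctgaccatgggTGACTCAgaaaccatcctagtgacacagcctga
The EZH2-only stretch at chr15:102746888-102747087 has 26 CpGs in 200 bases and lies in an intergenic EZH2 domain upstream of Calcoco1.
Calcoco1: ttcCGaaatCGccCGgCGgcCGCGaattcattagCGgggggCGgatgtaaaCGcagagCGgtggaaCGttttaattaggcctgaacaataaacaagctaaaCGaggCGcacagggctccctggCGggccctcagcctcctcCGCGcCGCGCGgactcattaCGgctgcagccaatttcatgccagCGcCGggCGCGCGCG

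The cells carried the RNA of fibroblasts. Of 10 fibroblast markers, 7 were above 5 TPM in both WT RNA-Seq libraries, among them Vim at 5615 and 3903 TPM and Col1a2 at 2145 and 1772 TPM. TPM is a share of all transcripts, scaled by gene length. The fibroblast markers Thy1 and Lum were listed at 0 and Dcn was at 1.54 and 0.79 TPM. All 4 pluripotency, 4 epithelial, 3 endothelial and 3 muscle markers were below 5 TPM in both libraries. The haematopoietic marker Cd68 reached 8.66 TPM in 1 library, and the neural markers Sox2 and Map2 were at 43.9 and 37.1 TPM and at 14.6 and 25.6 TPM. Ezh2 itself was at 204 and 177 TPM and Atrx at 233 and 141 TPM, so the RNA of both proteins was present. The RNA-Seq libraries held 13320635 and 11856636 estimated counts. The peak lists hold no read counts, and the study gives only an approximate range of reads over its samples, so the depth behind each CUT&RUN list was not known. The replicate lists differed in length, and the reproducible ATRX positions were 35.2% of the first and 66.9% of the second ATRX list. For EZH2 these shares were 69.9% and 85.6%. In addition, 32 ATRX and 8 EZH2 peaks that overlapped between replicates lay outside the assembled chromosomes and were left out.

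Most ATRX positions overlapped EZH2, whereas most EZH2 positions did not overlap ATRX. The share was 62.2% of ATRX positions and 12.7% of EZH2 positions. With the replicate 1 lists alone the shares were 65.6% and 26.7%, and with the replicate 2 lists alone 62.9% and 16.3%. Pairing ATRX replicate 1 with EZH2 replicate 2 gave 53.2% and 26.3%, and the opposite pairing gave 67.3% and 14.4%. The share on the ATRX side thus lay between 53.2% and 67.3% over the pairings, and the share on the EZH2 side was higher with the longer ATRX list. EZH2 positions covered 15.8 Mb, or 0.581% of the genome, and held 1786 of the 3197 ATRX midpoints. ATRX midpoints were 113 per Mb inside EZH2 positions and 0.521 per Mb outside them, a ratio of 217. The same ratio was 203 with the replicate 1 lists and 209 with the replicate 2 lists. The separation of the classes was less sharp than the names imply, since 649 ATRX-only positions (53.7%) overlapped a peak of either EZH2 list without overlapping a reproducible EZH2 position. Likewise 3105 EZH2-only positions (22.8%) overlapped a peak of either ATRX list.

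Where both proteins were called, their peaks lay on top of each other. The midpoints of a shared ATRX position and its EZH2 partner were 80 bp apart in the median, with quartiles of 33.5 and 181 bp. EZH2 covered 96.0% of the shared ATRX position in the median and all of it in 43.3% of cases. In the other direction, ATRX covered 73.8% of the EZH2 position in the median.

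The classes differed in place. Positions were assigned to a transcription start site (TSS) when they came within 2 kb of the start of any of 55413 annotated genes, to a gene body when they overlapped a gene elsewhere, and otherwise to intergenic DNA. TSS windows held 66.4% of EZH2-only positions, 36.5% of shared positions and 12.8% of ATRX-only positions. Over the replicate lists taken alone the TSS share was 58.9% ± 3.61 for EZH2-only, 39.9% ± 2.61 for shared and 12.9% ± 1.41 for ATRX-only positions (mean ± SD, n = 2 lists), so each step was larger than the difference between replicates. The order was reversed for intergenic DNA, which held 45.3% of ATRX-only, 28.8% of shared and 13.3% of EZH2-only positions. With 2 lists against 2, the smallest p an exact two-sided permutation test can give is 0.333, so no p-values are given, and positions were not used as replicates. Gene bodies held 41.9%, 34.8% and 20.3% of the 3 classes. Of the gene-body positions, 38.7% touched an exon in the EZH2-only class, against 13.5% of shared and 11.5% of ATRX-only positions.

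The distance to the nearest protein-coding TSS showed the same order. Its median was 555 bp for EZH2-only, 20144 bp for shared and 54839 bp for ATRX-only positions, and 51.9% of ATRX-only positions were more than 50 kb away. Near a promoter the midpoints of the 2 proteins differed slightly in place. Among positions within 2 kb of a protein-coding TSS, shared ATRX midpoints lay 56 bp upstream of the TSS in the median, with quartiles at 209 bp upstream and 103 bp downstream. The midpoints of the EZH2 positions shared with ATRX lay 28 bp downstream in the median, and those of EZH2-only positions lay 91 bp downstream, and 66.7% of the latter were on the downstream side.

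**Figure D1:**
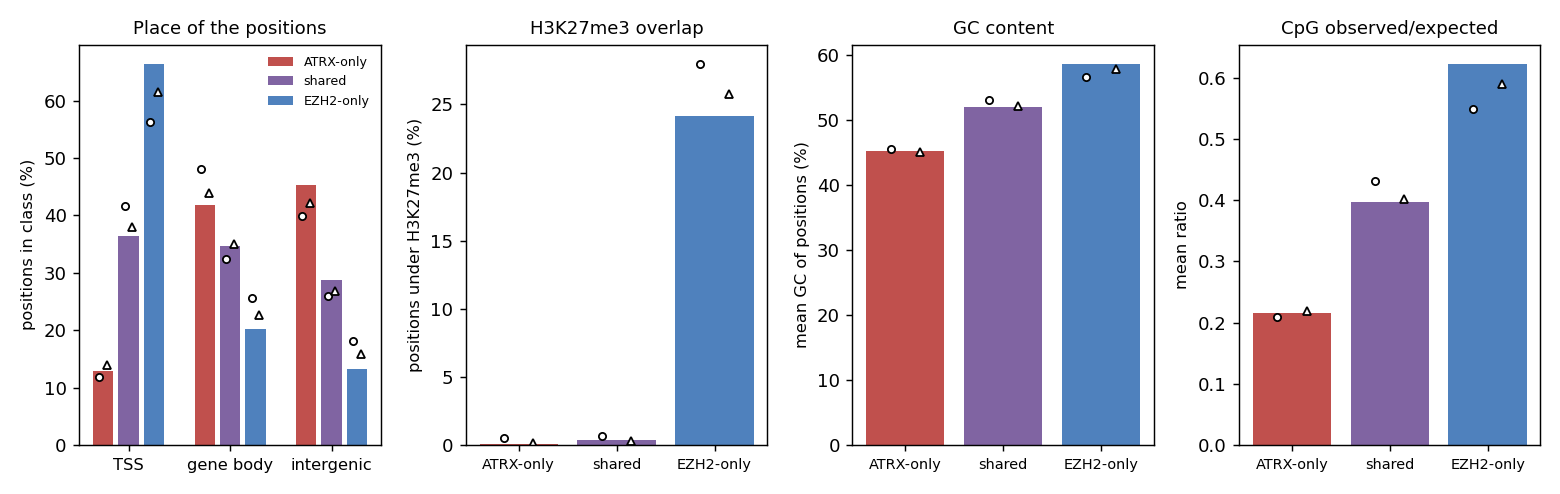
Place, H3K27me3 overlap, mean GC content and CpG observed/expected ratio of ATRX-only, shared (ATRX coordinates) and EZH2-only positions. Bars are positions found in both lists of a target, circles the replicate 1 lists alone and triangles the replicate 2 lists alone. ATRX-only positions were mostly outside TSS windows, and EZH2-only positions alone had an H3K27me3 overlap above 1%, at 24.1%.

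Sequence composition differed between the classes. Mean GC content was 45.3% in ATRX-only, 52.05% in shared and 58.7% in EZH2-only positions. In the replicate lists alone it was 45.3% ± 0.323, 52.6% ± 0.626 and 57.2% ± 0.920 (mean ± SD, n = 2 lists). The observed/expected ratio of CpG was 0.216, 0.397 and 0.623. Within TSS windows alone, mean GC was 47.1% in ATRX-only, 58.0% in shared and 62.0% in EZH2-only positions. Outside them it was 45.0%, 48.7% and 52.1%, so the order held in both settings. Repeat-masked bases made up 16.3% of ATRX-only positions on average, against 8.49% of shared and 7.82% of EZH2-only positions, and 104 ATRX-only positions (8.60%) were masked over at least 50% of their length.

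H3K27me3, the product of EZH2, set the EZH2-only class apart. A position counted when peaks of both WT H3K27me3 lists overlapped it. This held for 3280 EZH2-only positions (24.1%), 7 shared positions (0.352%) and 1 ATRX-only position (0.0827%). In the replicate lists alone the shares were 28.0% and 25.8% for EZH2-only positions, 0.670% and 0.268% for shared positions, and 0.480% and 0.171% for ATRX-only positions. Regions called in both lists of EZH2 and under H3K27me3 covered 7.60 Mb and held 7 ATRX midpoints, or 0.921 per Mb, against 1.17 per Mb outside them. EZH2 positions without a peak of either H3K27me3 list covered 7.999 Mb and held 1765 ATRX midpoints, or 221 per Mb, against 0.527 per Mb outside them. The 7 shared exceptions were mostly short patches of the mark. They lay at the TSSs of Catspere2, Zfp959 and Wfs1, in Vgf and Arid3b, and at 2 intergenic sites on chromosomes 5 and X, and they were named because of their small number. At Wfs1, which encodes an endoplasmic reticulum membrane protein, ATRX was enriched 5.25 and 4.72-fold, EZH2 12.4 and 9.51-fold and H3K27me3 4.59 and 3.37-fold over local background in replicates 1 and 2. The H3K27me3 peak there was 375 bp wide in replicate 1, while the one in Vgf was 5341 bp wide.

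Peak widths overlapped widely between the classes. ATRX peaks had a median width of 421 bp when shared and 366 bp when ATRX-only, and in the replicate lists alone these were 338 bp ± 12.02 and 294 bp ± 32.5 (mean ± SD, n = 2 lists). This order turned when an EZH2 position had to cover at least 50% of an ATRX position to count as shared, with medians of 384 bp for shared and 423 bp for ATRX-only positions. The median EZH2 position was 497 bp wide when shared and 636 bp wide when EZH2-only, and in the replicate lists alone 437 bp ± 21.2 and 476 bp ± 3.54. Within TSS windows this order turned, at 859.5 bp for shared and 754 bp for EZH2-only positions, and outside them the medians were 396 and 401 bp. At the upper end, 298 EZH2-only positions were 5 kb or wider and no shared position was. The 10 widest EZH2-only domains covered developmental loci, led by the whole HoxC cluster in a domain of 134831 bp (chr15:102908526-103043356), followed by a HoxA domain of 45517 bp, Pax6 with 33325 bp and a HoxD domain of 32820 bp. None of these 10 domains overlapped a peak of either ATRX list.

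The share of EZH2 positions that carried ATRX depended on width and on the mark together. Among EZH2 positions at TSS windows without H3K27me3, 4.51% of those under 300 bp were shared, and the share climbed through 6.57%, 9.41% and 15.03% to 22.2% of the 63 positions from 2500 to under 5000 bp. Wider positions offer more bases to overlap, and the part of width in these shares was not tested. Outside TSS windows and without H3K27me3 the share was higher at every width below 2500 bp, at 21.3% under 300 bp, 34.4% from 300 to under 600 bp, 33.6% from 600 to under 1200 bp and 21.1% from 1200 to under 2500 bp. With H3K27me3 the share was at most 0.813% in any width bin, at TSS windows or outside them.

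**Figure D2:**
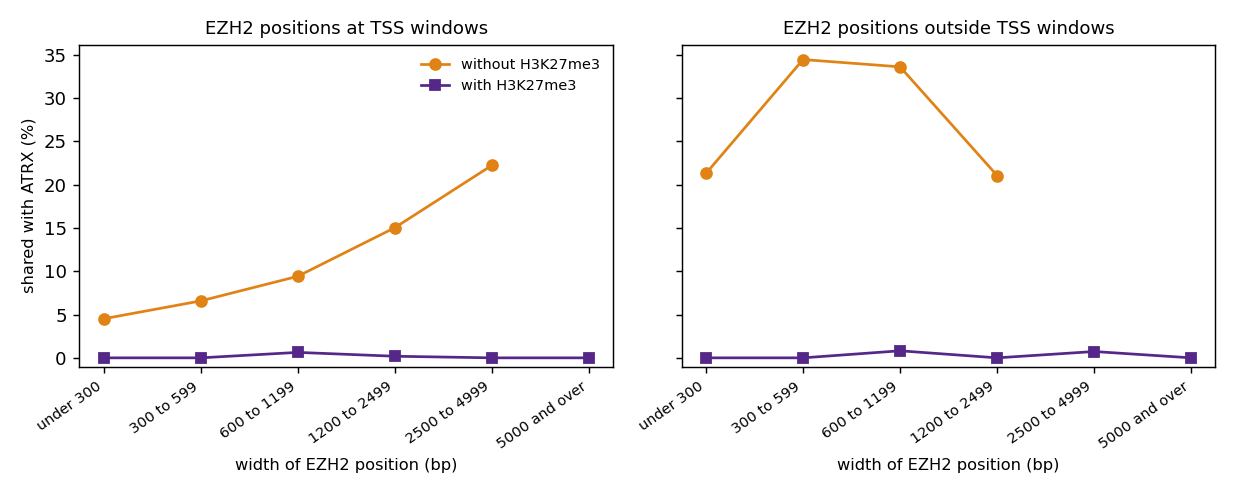
Share of EZH2 positions that overlapped an ATRX position, by width of the EZH2 position in bp, at TSS windows (left) and outside them (right), for positions with and without H3K27me3 in both lists. Bins with fewer than 20 positions are not drawn. The line for positions with H3K27me3 stays below 1% at every width.

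At the level of genes, 1026 annotated TSSs (1.85% of 55413) had a shared position in their window, 160 (0.289%) had ATRX-only, 11671 (21.1%) had EZH2-only, and 18 (0.0325%) had both proteins without overlap. Among 21938 protein-coding TSSs these counts were 733 (3.34%), 43 (0.196%), 9058 (41.3%) and 8 (0.0365%). The kinds of gene differed, as 71.4% of shared TSSs and 77.6% of EZH2-only TSSs were protein-coding, but only 26.9% of ATRX-only TSSs. Over all annotated genes 39.6% were protein-coding. ATRX-only TSSs included 35 lincRNAs (21.9%, against 10.6% of all genes), 14 snRNA genes (8.75% against 2.50%) and 16 processed pseudogenes (10.0% against 17.9%). Of the EZH2-positive protein-coding TSSs with an RNA value, 727 of 9774 (7.44%) also had ATRX.

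Genes with shared promoters were expressed. Their median level was 37.0 and 41.9 TPM in the 2 WT RNA-Seq libraries, with 83.9% and 85.3% of the 727 genes above 5 TPM. The 9039 genes with EZH2-only promoters had medians of 22.5 and 26.4 TPM, and the 12060 protein-coding genes with neither protein had medians of 0 and 0 TPM. The difference between shared and EZH2-only medians was larger than the difference between the RNA-Seq libraries (39.5 ± 3.50 against 24.4 ± 2.79 TPM, mean ± SD of the 2 medians). The 43 protein-coding genes with ATRX-only promoters were split, with medians of 3.98 and 10.99 TPM, 20.9% and 16.3% at 0 TPM, and 25.6% above 100 TPM in each library. A spread this wide over 43 genes leaves their level uncertain. Peaks of both H3K27me3 lists touched the TSS window of 18.03% of EZH2-only and 0.825% of shared protein-coding genes. The TSSs and genes counted below as under H3K27me3 met this rule.

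The share of EZH2-positive promoters that carried ATRX was highest at high RNA levels over all genes, but not among genes without H3K27me3. From 0 TPM to above 100 TPM it went from 4.93% to 10.0% by RNA-Seq replicate 1 and from 4.08% to 10.3% by replicate 2, while the H3K27me3 share fell from 75.2% to 1.21% and from 77.9% to 1.04%. Without the TSSs under H3K27me3, the share was 20.1% of the 139 genes at 0 TPM in both libraries, 11.4% of 352 genes up to 1 TPM, 7.32% from 1 to 5 TPM and 10.2% above 100 TPM. Of the 28 shared genes at 0 TPM, 11 were histone genes, whose messages as a rule have no poly(A) tail and are poorly captured by poly(A) selection. Of the 40 shared genes above 0 and up to 1 TPM, 9 were histone genes. Without histone genes the share was 13.9% at 0 TPM, from 17 genes, and 9.63% above 0 and up to 1 TPM, from 31 genes. The 17 genes at 0 TPM included Trpm8, a cold-sensing ion channel, and Entpd1, an ectonucleotidase, and several were predicted gene models.

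**Figure D3:**
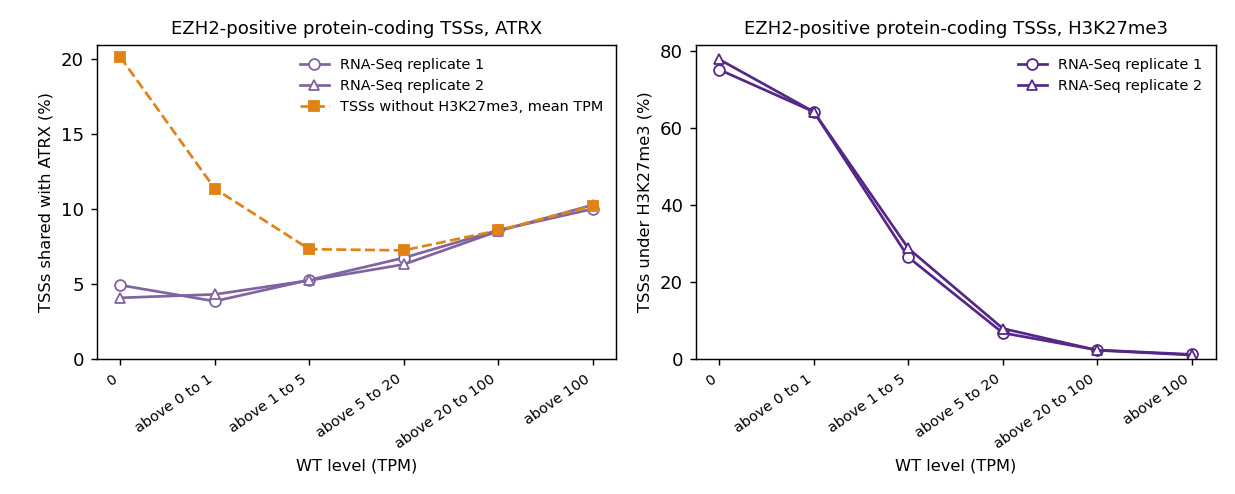
Protein-coding TSSs with EZH2 by WT RNA level in TPM. The left panel gives the share that also had a shared ATRX position, by each RNA-Seq library and, for TSSs without H3K27me3, by the mean of both; the right panel gives the share under H3K27me3. The shared share ends at 10.0% and 10.3% above 100 TPM, and the H3K27me3 share drops from above 75% to near 1%.

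The strongest shared promoters on chromosomes other than 18, which was left out of the ranking in every class, ranked by the mean within-list percentile of fold enrichment over the 4 ATRX and EZH2 lists, were those of Zfp760, Stard3nl, Mdm1, Ppp2r1a, Wbp1, Bpgm, Smpd3 and Kbtbd3. At Zfp760, a zinc finger gene, the position at chr17:21707337-21707858 had ATRX enrichment of 6.10 and 6.42-fold and EZH2 enrichment of 11.7 and 8.88-fold in replicates 1 and 2, and the gene was at 8.61 and 13.1 TPM. At Mdm1, a microtubule-binding protein of the centriole, ATRX was at 6.05 and 6.76-fold and EZH2 at 13.8 and 7.39-fold (chr10:118141473-118141993). Ppp2r1a, the scaffold subunit of protein phosphatase PP2A, had ATRX at 6.64 and 5.96-fold and EZH2 at 9.99 and 7.78-fold and was expressed at 277 and 264 TPM. At Bpgm, the bisphosphoglycerate mutase of the glycolytic side branch, ATRX was at 6.91 and 7.15-fold and EZH2 at 7.52 and 6.22-fold. None of these 8 positions overlapped H3K27me3, and their midpoints lay between 167 bp upstream and 101 bp downstream of the TSS. The most highly expressed genes with a shared promoter were S100a6 at 11496 and 7658 TPM, Lgals1 (galectin-1) at 6348 and 5679 TPM, Vim (vimentin), Hsp90b1 (a chaperone of the endoplasmic reticulum) at 1686 and 2332 TPM and Msmo1 (a sterol synthesis enzyme) at 1419 and 1488 TPM. The fibroblast marker Vim had ATRX at 4.86 and 5.25-fold and EZH2 at 4.28 and 4.54-fold, on a position that reached from upstream of the TSS, where the AP-1 pair printed above lies, into the first exon.

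Away from promoters, the strongest shared positions were intergenic near Ddi1 (chr9:6454466-6455147), in an intron of Prune2 (chr19:17140313-17140756) and intergenic near Cep162 (chr9:87463916-87464539). ATRX was at 6.05 and 6.47-fold and EZH2 at 6.97 and 6.85-fold in Prune2, 184416 bp downstream of its TSS. The nearest protein-coding TSSs of the other 2 were 184960 and 208691 bp away, and Ddi1 was listed at 0 TPM in both libraries.

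ATRX-only promoters were few. The 8 highest by the same ranking were those of Asmt, Cxcl5, Eapp, Timp1, Gm17655, Gsn, Usp7 and Tpcn2, and 7 of the 8 had their midpoint more than 1 kb from the annotated TSS. The position at Asmt held a tandem repeat with a period of 63 bp. That at Gm17655 held 9 telomeric units, and both are among the repeat positions counted below. Timp1, an inhibitor of matrix metalloproteases, had a position 1901 bp upstream of its TSS with ATRX at 5.50 and 4.76-fold, and was expressed at 341 and 284 TPM. Gsn (gelsolin, an actin-severing protein) had a position 1264 bp upstream with 5.197 and 4.74-fold, at 314 and 320 TPM. The chemokine gene Cxcl5 had a position 1327 bp downstream with 5.34 and 6.40-fold, at 263 and 286 TPM. The highest RNA levels in the class were S100a4 at 4166 and 4164 TPM and Hspa5, the main chaperone of the endoplasmic reticulum, at 969 and 1132 TPM, beside 2 gene models over ribosomal RNA sequence on chromosome 17. S100a4 lies next to S100a6, which had a shared promoter.

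Outside promoters, the 3 highest-ranked ATRX-only positions on chromosomes other than 18 were 1 intergenic and 2 intronic sites. An intronic position in Commd10 on chromosome 18, named after its values were seen, was at 7.36 and 8.72-fold. The position upstream of Klf6 (chr13:5837139-5837723), an immediate early transcription factor gene at 116 and 108 TPM, had ATRX at 7.06 and 7.20-fold and lay 24051 bp from its TSS. Those in introns of Atxn1 (chr13:45623315-45624570) and Dop1b (chr16:93778296-93778729) were at 6.62 and 8.42-fold and at 6.78 and 7.26-fold.

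The EZH2-only promoters with the highest enrichment lay under H3K27me3, and their genes had little RNA. The leading promoters were those of Sox14, Col2a1, Lbx1, Sox1, Tchh, Fgf9, Pax2 and Ccnd2, with EZH2 between 14.5 and 17.1-fold in replicate 1 and between 12.1 and 13.7-fold in replicate 2. All 8 lay under H3K27me3 in both lists and all 8 genes were at or below 1.44 TPM. Fold enrichments of the 2 targets come from different antibodies and lists and were not compared with each other. The most expressed genes with an EZH2-only promoter were Fth1 (ferritin heavy chain) at 4673 and 2999 TPM, Hsp90ab1 at 3410 and 2954 TPM, Rplp1, Rack1 and Tmsb4x. None of these 5 promoter positions was under H3K27me3, and their EZH2 enrichment was between 3.65 and 5.89-fold.

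In developmental gene families few promoters had ATRX, as was the case over all protein-coding TSSs, of which 3.34% were shared and 41.3% EZH2-only. Lists of this size would hold few shared members at that share. Of 39 Hox genes, 30 had an EZH2-only promoter, none was shared and 27 were under H3K27me3. Hoxb2 was the 1 Hox gene with ATRX, as an ATRX-only position at 4.14 and 3.801-fold, and was at 35.2 and 38.4 TPM. Of 63 forkhead and Sox genes, 40 were EZH2-only and 1 was shared: Foxc1, with ATRX at 4.55 and 4.68-fold, EZH2 at 6.35 and 5.37-fold, no H3K27me3 at the position and 55.1 and 48.7 TPM. Of 68 Pax, T-box, Lhx, Dlx, Irx, Nkx, Gata and related factor genes, 48 were EZH2-only and none was shared. The same held for 22 EZH2-only of 29 Wnt and Frizzled genes, 15 of 44 collagen genes, 15 of 40 imprinted genes, and 5 of 57 clustered protocadherins. Among 1093 olfactory receptor genes, 1 was ATRX-only and 1 was EZH2-only.

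Among the housekeeping families the shared count varied. Replication-dependent histone genes had the largest share, with 22 of 67 shared (32.8%) and 40 EZH2-only, against 3.34% shared among all protein-coding TSSs. These genes are clustered, so that the 22 genes rested on 11 ATRX positions, 20 of the genes lay on chromosome 13, and reads of near-identical histone copies may not be told apart. The position at chr13:21715702-21716103 overlapped Hist1h2bl itself and also lay in the TSS windows of Hist1h2ai and Hist1h3h. It had ATRX at 4.45 and 4.14-fold and EZH2 at 4.77 and 5.70-fold. Replication helicase genes (the MCM, ORC and GINS factors that load and open DNA for replication) had 6 of 20 shared and 13 EZH2-only. Orc2 had ATRX at 5.49 and 4.24-fold and EZH2 at 10.1 and 6.54-fold, and Mcm5 had ATRX at 5.01 and 4.78-fold and EZH2 at 6.80 and 4.93-fold. Zfp zinc finger genes had 24 of 395 shared (6.08%) and 181 EZH2-only, led after Zfp760 by Zfp873, Zfp654 and Zfp599. Spliceosome genes had 6 of 65 shared. Cytosolic ribosomal protein genes had 3 of 83 shared (Rps29, Rpl37 and Rps27l) and 51 EZH2-only. Oxidative phosphorylation genes had 2 of 81 shared (Ndufv2 and Ndufb9) and 54 EZH2-only, and proteasome genes had none of 39 shared and 28 EZH2-only. The shared shares of the ribosomal protein, oxidative phosphorylation and proteasome lists were thus 3.61%, 2.47% and 0%, beside 3.34% over all protein-coding TSSs.

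The genes of PRC2 and of the ATRX partners mostly had EZH2 without ATRX, as did 41.3% of all protein-coding TSSs. Of 11 PRC2 subunit genes, 8 had an EZH2-only promoter, including Ezh2, Suz12 and Eed, and 0 were shared, where 3.34% of all protein-coding TSSs were. Of 11 genes for ATRX partners and H3.3, 8 were EZH2-only, among them H3f3a (H3.3) and Hira (its chaperone), and Cbx5 (HP1α) was shared, with ATRX at 3.76 and 4.09-fold and EZH2 at 5.14 and 6.21-fold. The TSS of Atrx had neither protein.

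The AP-1 consensus marked positions away from promoters. TGANTCA, read on both strands, occurred in a window of 300 bp at the midpoint of 57.4% of shared and 54.3% of ATRX-only positions outside TSS windows, against 8.88% of windows of the same length taken every 20000 bp along the genome. In the replicate lists alone it was in 58.2% and 58.8% of shared and 47.7% and 51.1% of ATRX-only positions. EZH2-only positions outside TSS windows held it in 34.6%, which split into 47.8% of those without H3K27me3 in either list and 9.26% of those under H3K27me3 in both. The motif was thus also common at EZH2 positions with neither a reproducible ATRX position nor H3K27me3. Some EZH2-only positions touched a peak of either ATRX list, and the share was not recomputed without them. At TSS windows it was in 16.7% of shared, 43.2% of ATRX-only and 5.39% of EZH2-only positions, and in 7.81% of 32851 RefSeq promoters of 300 bp. AP-1 matches peaked at the midpoint, with 3.39 per kb in shared, 3.49 per kb in ATRX-only and 2.23 per kb in EZH2-only positions in the highest bin of 50 bp, against 0.313 per kb in the genome windows. Several AP-1 genes were expressed, with Jund at 193 and 113 TPM, Junb at 147 and 129 TPM, Fosl1 at 81.4 and 77.6 TPM, Fosl2 at 68.5 and 65.1 TPM and Jun at 64.8 and 58.3 TPM. The promoters of Jun and Fosl2 were shared, and those of Junb, Jund and Fos were EZH2-only.

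**Figure D4:**
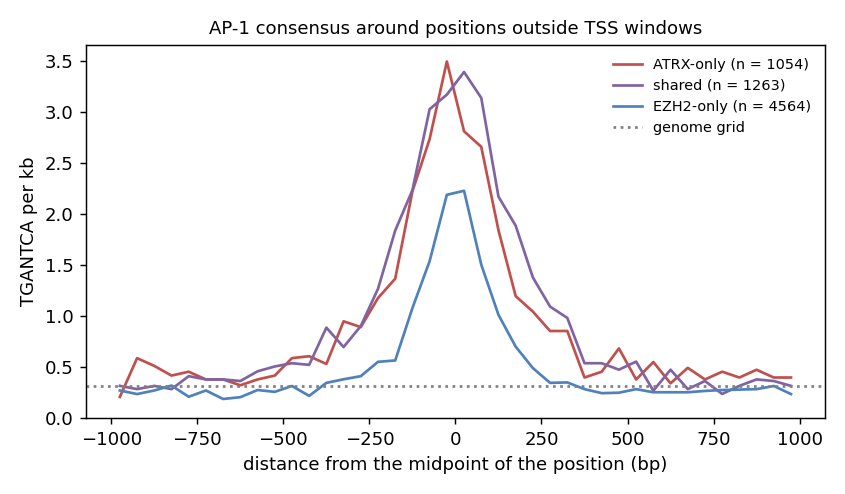
Density of TGANTCA (matches per kb, bins of 50 bp) by distance from the midpoint of ATRX-only, shared and EZH2-only positions outside TSS windows, with the genome windows as a dotted line. All 3 classes peak within 100 bp of the midpoint, and the ATRX-only and shared peaks, at 3.49 and 3.39 per kb, are above the EZH2-only peak at 2.23 per kb.

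Other short motifs were counted in the same windows. Outside TSS windows, the TEAD core GGAATG was in 24.3% of shared, 26.0% of ATRX-only and 17.7% of EZH2-only windows, against 16.0% of the genome windows. The RUNX core TGTGGTT was in 12.3%, 13.7% and 8.22%, against 6.81%. A core of the CTCF motif was in 5.67% of EZH2-only windows outside TSS windows and in 0.950% of shared and 1.61% of ATRX-only ones, against 1.75% of the genome. At promoters the CCAAT box was in 54.9% of shared and 28.5% of EZH2-only windows, or in 47.4% of shared windows when these were centred on the EZH2 peak, against 37.4% of RefSeq promoters. The GC box GGGCGG was in 57.0% of shared and 63.8% of EZH2-only windows at TSSs. A G-quadruplex pattern (4 runs of at least 3 G, 1 to 7 bases apart, on either strand) was in 16.3% of shared, 8.39% of ATRX-only and 27.1% of EZH2-only windows at TSSs, against 18.6% of RefSeq promoters. Outside TSS windows it was in 6.18%, 3.795% and 11.5%, against 5.07% of the genome windows. These shares depend on base composition and were not matched for it, and a match of letters is not a bound site.

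Tandem repeats were more frequent in ATRX-only positions than in the other classes. At least 2 adjacent telomeric units (TTAGGG on either strand) occurred in 27 of the 1209 ATRX-only positions, on 16 chromosomes. Of these 27, 26 held 9 or more units, and 1 held 97. Such units occurred in none of the 1988 shared ATRX positions and, with at most 3 units, in 6 of the 13603 EZH2-only positions. In windows of 300 bp outside TSS windows, the telomeric repeat was in 1.90% of ATRX-only positions, against 0.0181% of the genome windows. The longest run was at chr14:124801588-124802186, where ATRX was at 3.19 and 3.87-fold, and the one ranked highest by fold over both lists was intergenic at chrX:170758163-170758495, at 6.85 and 6.05-fold. For repeats of any unit, a window of 300 bp was counted as a tandem repeat when at least 70% of its bases equalled the base a fixed 2 to 100 bp further on, a cut chosen after values were seen. This held for 33 ATRX-only positions (2.73%), 5 shared positions (0.252%), 10 EZH2-only positions (0.0735%) and 0.302% of 13241 genome windows. The share of ATRX-only positions was 1.66% and 1.99% in the replicate lists alone and 5.71% of the 560 ATRX-only positions that touched no peak of either EZH2 list. Of the 33, 13 had a period of 6 bp and 20 a period between 13 and 84 bp. Several of the longer units carried AP-1 matches, with 30 matches over 1045 bp in Eif2ak4 (period 34 bp), 18 in Dnajc13 (period 37 bp) and 10 in Dop1b (period 40 bp). The position in Atxn1 held 17 matches on a less regular repeat of 21 bp. Positions with at least 5 AP-1 matches occurred in every class, at 10 ATRX-only (0.827%), 8 shared (0.402%) and 24 EZH2-only positions (0.176%). The most matches in 1 position were 30, 19 and 25 in these classes. Reads from such arrays cannot be placed uniquely in every case, and the aligner was run with default settings.

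The widest ATRX-only positions lay in unusual sequence. The widest, 38251 bp at chr9:3000034-3038284 next to the centromere, was 96.3% repeat-masked and only 1.48 and 1.82-fold enriched. The next, 5647 bp at chr17:39843074-39848720, covered ribosomal RNA sequence at 1.73 and 1.89-fold, and an EZH2 peak of WT replicate 1 also overlapped it. Another, 3914 bp at chr14:19415721-19419634, was 84.0% masked at 1.49 and 1.94-fold. In the same order, −log10 q at these sites was 3.81, 2.78 and 3.75 in replicate 1 and 12.1, 4.46 and 15.4 in replicate 2. Their folds in replicate 1 were below the median ATRX-only fold of 4.48 in that replicate. A group of 25 ATRX-only positions lay between bases 123037512 and 125571416 of the X chromosome in DNA masked over 69.3% to 96.5% of their length. Another 10 lay on the Y chromosome, masked over 55.2% to 100%, with fold values between 4.25 and 7.65 in replicate 1. The methods describe the cells as female. Reads from repeats shared with other chromosomes cannot be told apart from Y reads here, so these positions do not show whether a Y chromosome was present.

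The chromosomes differed in how often EZH2 positions carried ATRX. The share was highest on chromosome 10, with 213 of 889 EZH2 positions (24.0%), and low on chromosome 7, with 42 of 822 (5.11%). In the replicate lists alone chromosome 10 was at 37.5% and 27.8% and chromosome 7 at 16.3% and 8.004%, so that the gap was present in both. ATRX-only positions differed in the same direction, with 0.803 per Mb on chromosome 10 and 0.179 per Mb on chromosome 7. Of the ATRX positions, 66.9% were shared on chromosome 10 and 61.8% on chromosome 7. The X chromosome had 8 shared positions among 265 EZH2 positions (3.02%) and among 52 ATRX positions (15.4%), the lowest share of both kinds on any chromosome other than Y. Without the 25 repeat-masked ATRX-only positions described above, 8 of 27 ATRX positions on X (29.6%) were shared. Its share on the ATRX side was 39.8% and 21.1% in the replicate lists alone, a wide spread. Chromosome 19 had the highest share of ATRX positions with EZH2, at 75.8%, with 79.6% and 73.3% in the replicate lists.

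**Figure D5:**
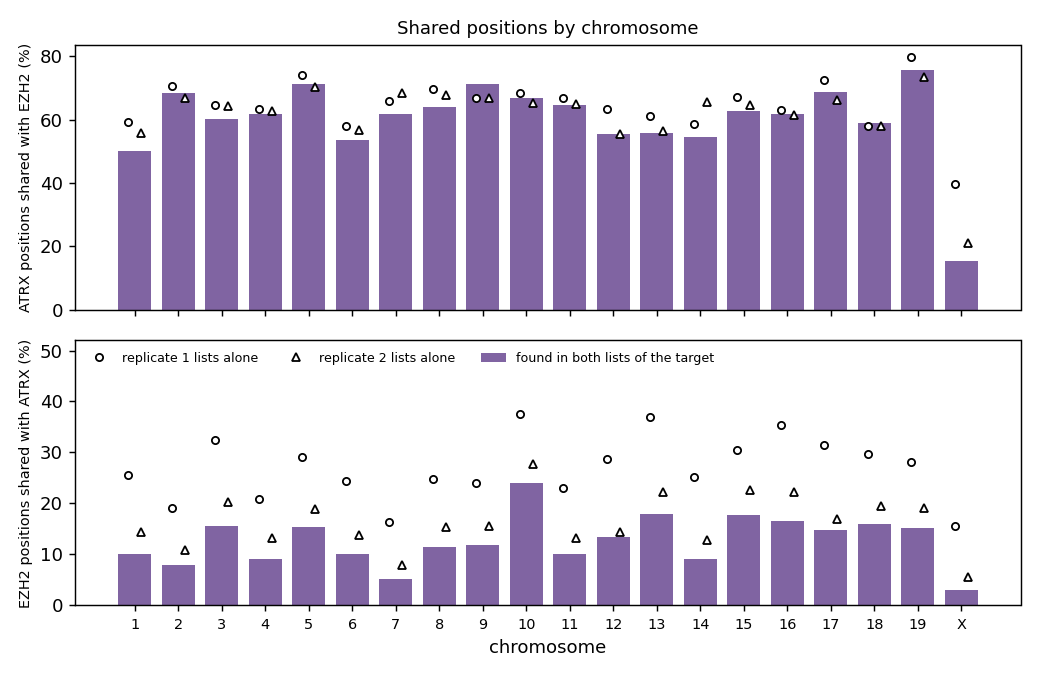
Share of ATRX positions that were shared with EZH2 (top) and of EZH2 positions that were shared with ATRX (bottom), by chromosome. Bars are positions found in both lists, circles the replicate 1 lists and triangles the replicate 2 lists alone. Y, with 10 ATRX positions and 1 EZH2 position, is not drawn. Chromosome 10 is highest in the lower panel at 24.0%, and X is the lowest drawn in both panels.

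The classes were finally looked up in the lists of the other genotypes. In ATRXΔRBR cells, an ATRX peak was called at 67.0% and 69.7% of shared positions in replicates 1 and 2, and at 44.5% and 75.6% of ATRX-only positions. The 2 ATRXΔRBR replicates thus disagreed on ATRX-only positions by more than the classes differed (68.3% ± 1.89 against 60.0% ± 22.0, mean ± SD, n = 2 lists). They also disagreed in place, as shared positions at TSS windows kept an ATRX peak in 73.8% and 57.0% of cases and those elsewhere in 63.1% and 77.0%. EZH2 was called in ATRXΔRBR at 83.4% and 63.7% of the shared EZH2 positions and at 80.6% and 66.7% of the EZH2-only positions. In ATRX KD cells EZH2 was called at 28.1% and 34.7% of shared and at 28.3% and 36.3% of EZH2-only positions, a difference between classes smaller than that between replicates. The ATRX KD lists were short, with 5316 and 7039 peaks, and library depth and genotype cannot be told apart there. At TSS windows in ATRX KD, 61.5% and 68.6% of shared EZH2 positions had a peak, against 37.1% and 47.3% of EZH2-only positions, and outside them 9.09% and 15.4% against 10.8% and 14.5%. EZH2 positions in the highest quartile of WT enrichment had a peak in 60.3% and 67.8% of shared cases and 58.8% and 68.2% of EZH2-only cases in ATRX KD. In the next quartile the shares were 25% and 31.5% for shared and 29.9% and 39.8% for EZH2-only positions.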

How the data were processed

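CUT&RUN for ATRX, EZH2 and H3K27me3 and poly(A) RNA-Seq were each represented by 2 libraries of WT MEFs. The study describes its sequencing replicates as biological, and the labels do not say whether the CUT&RUN replicates came from separate cultures. The authors aligned CUT&RUN reads to mm10 with Bowtie2 at default settings and called peaks per library with MACS2 in broad mode (broad cutoff 0.1). The control library used for peak calling is not given in the sources used here, and the IgG lists were not analysed here. The deposited peak lists give fold enrichment over local background and −log10 p and q, each averaged over the peak, and their score column was not used. The authors aligned RNA-Seq reads with STAR, and RSEM gave the deposited estimated counts and TPM per gene. Genes came from GENCODE M21, and peaks off the 21 assembled chromosomes were left out.

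Overlap of at least 1 bp defined reproducible and shared positions, in replicate 1 coordinates. Place was set by a TSS window of 2 kb each side, then gene body, then intergenic. Sequence measures used the GRCm38 reference, repeat masking as given there, and motif windows of 300 bp at position midpoints, compared with windows every 20000 bp and 32851 RefSeq promoters. Positions were ranked by the mean within-list percentile of fold enrichment. Named were the 8 highest at protein-coding TSSs and the 3 highest outside TSS windows in each class (chromosome 18 not considered), up to 4 members per gene list and the 5 genes of highest TPM. Motifs and the tandem repeat measure were chosen with the data in view. The members and lists were chosen with earlier results of these data known. Differences were set beside the spread between the replicate lists. The deposited peak lists hold no read depth, so no counting interval could be given. Python 3.11.15, numpy 2.4.6, pandas 2.3.3, pysam 0.24.0 and matplotlib 3.10.9 were used, and the overlap and placement steps were tested on simulated data. The sequence of 1 repeat position is not reported here.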

Additional observations from a re-analysis of the deposited data

How the results depend on the processing

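Of 139 values recomputed under the alternatives, 84 stayed within the spread between replicates and 55 moved further. Counts of reproducible positions have no such spread and were taken to stay when within 1.5 times the reported count. The order of the classes was the same in 9 of 9 settings for TSS share, 6 of 6 for H3K27me3, 7 of 7 for GC, 11 of 11 for TPM, 6 of 6 for EZH2 width and 5 of 6 for ATRX width. No paired analysis was possible because the classes come from overlaps of peak lists and not from a test between samples. The cause of each shift was not tested. With peaks at q of 0.01 or less, 1582 ATRX positions were reproducible, 55.6% of them and 7.35% of EZH2 positions were shared (12.7% as reported), and median widths were 403 bp (ATRX-only) and 709 bp (EZH2-only), with ATRX-only GC of 45.7%. With at least 50% of a peak covered by the other target, 53.6% of ATRX positions were shared, with shared TSS share 39.9% and GC 52.9%, and median widths of 384 bp (shared ATRX), 423 bp (ATRX-only), 418 bp (shared EZH2) and 649 bp (EZH2-only). In replicate 2 coordinates the widths were 372 bp (shared ATRX), 447 bp (shared EZH2) and 537 bp (EZH2-only). Leaving out positions touched by any peak of the other target gave 78.0% of ATRX positions shared, ATRX-only GC of 43.9%, and for EZH2-only a width of 655 bp, H3K27me3 of 30.9% and 10.1 TPM. Median TPM is given here over all annotated genes unless stated, with 20.6 (shared), 0.133 (ATRX-only) and 12.9 (EZH2-only) in the reported setting. A TSS window of 1 kb gave TSS shares of 32.9% (shared) and 7.94% (ATRX-only) and medians of 23.9 TPM (shared) and 14.5 TPM (EZH2-only). Protein-coding genes alone, by the mean of both libraries, gave TSS shares of 30.7% (shared), 4.14% (ATRX-only) and 60.9% (EZH2-only) and medians of 39.4, 8.38 and 24.8 TPM. Genes with at least 1 TPM in both libraries had medians of 43.0, 12.1 and 33.0 TPM. GC over 200 bp at the midpoint was 60.8% for EZH2-only positions.

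Without either CUT&RUN replicate, the shared share was 62.9% to 65.6% for ATRX and 16.3% to 26.7% for EZH2, highest with the replicate 1 lists. Widths were 329 to 346 bp (shared ATRX), 271 to 317 bp (ATRX-only), 422 to 452 bp (shared EZH2) and 473 to 478 bp (EZH2-only). TSS shares were 38.0% to 41.7% (shared), 11.9% to 13.9% (ATRX-only) and 56.4% to 61.5% (EZH2-only). H3K27me3 shares were 0.268% to 0.670%, 0.171% to 0.480% and 25.8% to 28.0%, and GC 52.1% to 53.0%, 45.1% to 45.5% and 56.5% to 57.8%. Over the CUT&RUN and RNA-Seq libraries left out, median TPM ranged from 18.3 to 23.7 (shared), 0.025 to 0.182 (ATRX-only) and 10.1 to 13.6 (EZH2-only). The peak lists hold no read counts, so an absent peak is not an absent protein.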
